A study of Mus musculus with 4 samples.

Results

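The cells described here are mesenchymal cells of the fetal mouse penis selected on *Twist2*, *Osr2* and *Crabp1* together with the T-box and Iroquois genes *Tbx18*, *Tbx15* and *Irx1* and the matrix-linked gene *Itih5*, a profile put forward for the general mesenchyme of the prepuce. A cell was selected where a UMI (a tag that marks 1 captured mRNA molecule) was found for at least 4 of these 7 markers and for at most 2 of 6 genes of subdermal fibroblasts (*Dpt*, *Cd34*, *Ly6a*, *Agtr2*, *Ebf1*, *Sema3c*). The rule took 2181 cells out of the 33704 that passed the cell filters (1000 to 10000 UMIs, at most 25% mitochondrial and at most 25% hemoglobin UMIs), which in turn came from 47040 deposited barcodes. They were 472 and 558 cells in the 2 control libraries and 753 and 398 cells in the 2 ablated libraries.

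Single-cell mRNA was measured with 10x Genomics libraries at E16.5. Control penises (labelled DTA- and wild type) carried the floxed diphtheria toxin allele at the Rosa locus without the *Nr5a1-Cre* transgene, and ablated penises (labelled DTA+) carried the same allele with it and a *tdTomato* reporter, so that toxin was made in *Nr5a1*-lineage cells. By the study's description of the model the Cre also acts in testis and adrenal gland, which were reduced or lost, so cell loss in the penis and hormone loss from these glands cannot be told apart here. Each genotype had 2 libraries, and nothing in the labels says more about the embryos than a replicate number, so the p-values measure the spread between these libraries. The libraries held 73577028 and 53654435 UMIs in control and 50794318 and 50779551 in ablated penises.

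The prepuce is the fold of skin that grows over the glans as paired swellings, and its mesenchyme lies between the epidermis and the tissue around the urethra. Its fibroblasts carry transcription factors of the dermal programme such as *Twist1* and *Twist2* and form a collagen-rich matrix. Glucocorticoids from the adrenal gland act on such cells through the receptor *Nr3c1*, and *Fkbp5*, *Zbtb16* and the metallothioneins are well-known genes induced by it.

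Most of the selected cells rested on the same 3 markers. *Twist2*, a transcription factor of dermal fibroblasts, had a UMI in 96.7% to 97.9% of them, *Osr2*, a zinc-finger factor of limb and palate mesenchyme, in 90.8% to 95.6%, and *Crabp1*, which binds retinoic acid in the cytoplasm, in 83.0% to 93.0%. The other 4 markers were patchier. *Tbx18* was found in 50.4% and 40.9% of the control cells and 44.6% and 51.3% of the ablated cells, and *Irx1* in 50%, 52.5%, 59.4% and 38.7% of the 4 libraries in the same order. *Itih5* was found in 30.5%, 43.7%, 36.8% and 21.4%, and *Tbx15* in 27.1%, 34.4%, 29.5% and 33.4%. Of all 2181 cells, 66.9% had exactly 4 markers and 22 cells had all 7. The most frequent combination was *Twist2*, *Crabp1* and *Osr2* with *Tbx18* (391 cells), followed by the same 3 genes with *Irx1* (364), *Tbx15* (188) or *Itih5* (165). None of the 6 limited genes was found in 39.7% of the cells, and *Ebf1* had a UMI in 29.2% to 44.4%. These shares follow from the rule and are given as a description.

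**Figure D1:**
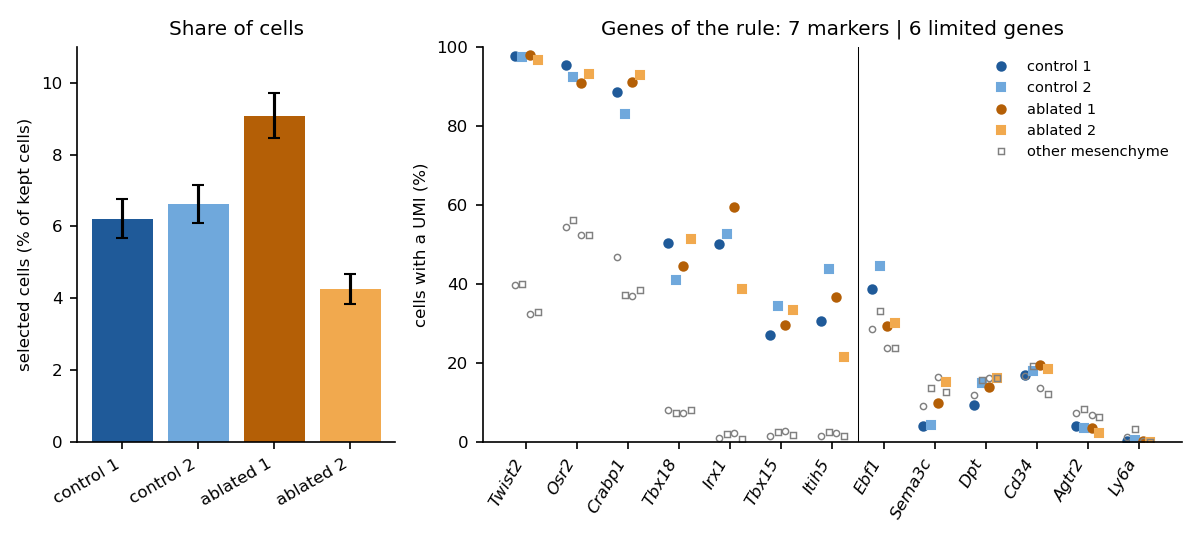
Left, selected cells as a percent of all kept cells in each library, with exact 95% binomial intervals that cover counting error only; right, percent of selected cells (coloured) and of other mesenchyme (open grey) with a UMI for each gene of the rule. The 2 ablated libraries, at 9.07% and 4.25%, lie on either side of the controls at 6.21% and 6.62%, and *Twist2*, *Osr2* and *Crabp1* are also found in 32.4% to 56.1% of the other mesenchyme.

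Cells lay on both sides of the limits in number. Those just inside, with 4 markers, numbered 335, 359, 462 and 304 in the 4 libraries (controls first), while those with 3 markers numbered 1096, 983, 915 and 1044. *Twist2* stood at 632, 550.4, 646 and 583 CPM (UMIs of the gene scaled to the UMI total of the cells) in the former and at 346, 394, 425 and 378 CPM in the latter. It is a marker of the rule, so this gap follows from the rule and is a description only. At the other limit, cells with 2 of the 6 limited genes numbered 76, 120, 118 and 92, against 40, 50, 58 and 53 cells with 3. A cell with more UMIs shows more genes, and the selected cells were the deeper ones, with a median of 6498.5, 5277.5, 5903 and 5945.5 UMIs against 5065, 4242, 3684 and 3673 over all kept cells. When every cell was first drawn down to 2000 UMIs, the same rule found 105, 155, 225 and 77 cells.

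Selected cells made up 6.21% (95% exact binomial interval 5.68 to 6.78) and 6.62% (6.10 to 7.17) of the kept cells in control penises, and 9.07% (8.46 to 9.71) and 4.25% (3.85 to 4.68) in ablated penises. One ablated library was above and the other below both controls, and the group means of 6.41% ± 0.287 (SD, n = 2) and 6.66% ± 3.41 (SD, n = 2) differed by less than the spread of the ablated pair. With 2 libraries against 2, an exact two-sided permutation test cannot go below p = 0.333, so no test of the share was made. Drawn down to 2000 UMIs per cell, the shares were 1.45%, 1.95%, 2.98% and 0.872%, in the same order.

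The cells were mesenchymal by their other genes. *Twist1*, which was not part of the rule, had a UMI in 96.6% to 98.8% of them, and *Pdgfra*, the platelet-derived growth factor receptor of fibroblasts, in 52.1% to 61.8%. The epithelial gene *Epcam*, the endothelial gene *Pecam1* and the leukocyte gene *Ptprc* were found in at most 0.754%, 1.06% and 0.538%. *Akap12*, the scaffold protein used in the study as its marker for general prepuce, was a different matter. It stood at 84.8, 72.5, 116 and 313 CPM in the selected cells. In the other mesenchyme (kept cells outside the selection with at least 3 of *Col1a1*, *Col1a2*, *Col3a1*, *Pdgfra*, *Prrx1* and *Twist1* and none of 16 genes of other lineages) it stood at 129, 230.0, 346 and 280.0 CPM. It was therefore lower in the selected cells in 3 of 4 libraries, and cells with fewer than 4 markers and at least 3 of the limited genes carried 645, 884, 1085 and 1203 CPM. Cells with at least 4 markers and at least 3 of the limited genes carried 616, 694, 666 and 1781 CPM. The limit on these genes therefore left out cells rich in *Akap12*. The label of general prepuce is not borne out by *Akap12*, and the cells are called the *Twist2*/*Osr2*/*Crabp1* cells, or selected cells, below.

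Outside the rule, the selected cells differed from other mesenchyme in the genes below, named from the 15 largest and 15 smallest ratios and the lists and given as a description, because the cells were chosen on their expression. *Irx2*, the neighbour of *Irx1* in the Iroquois family, stood at 46.8, 42.1, 81.6 and 32.5 CPM in the selected cells against 2.83, 4.84, 6.62 and 2.07 CPM in other mesenchyme. This was the largest ratio of any gene with at least 50 CPM, at 3.35 ± 0.327 on the log2 scale after adding 1 CPM (SD over 4 libraries). *Col7a1*, the collagen of anchoring fibrils under the epidermis, stood at 160.4, 233, 194 and 119.8 CPM against 20.1, 35.6, 30.4 and 16.9 CPM. *Lrig1*, a brake on EGF receptors, and the zinc-finger factor *Bcl11b* had log2 ratios of 2.24 ± 0.164 and 2.22 ± 0.344 (SD over 4 libraries). *Lum*, the collagen-binding proteoglycan lumican, had a ratio of 1.92 ± 0.492, and *Penk*, which encodes the enkephalin opioid peptides, of 2.05 ± 0.462.

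The 15 largest ratios also included *Ccl2*, a chemokine that draws monocytes, *Icam1*, an adhesion molecule for leukocytes, *Nr4a3*, *Gadd45b*, *Gadd45g* and *Ccn1*, and *Gm29101*, *Cpne8*, *Lmcd1* and *Nrn1*. *Ccl2* stood at 52.6, 196, 52.3 and 20.8 CPM in the selected cells against 4.85, 25.2, 5.70 and 5.23 CPM. A list of 23 genes that rise when tissue is dissociated, *Fos* among them, summed to 15189.6, 24242, 23675 and 16627 CPM in the selected cells and to 9775, 19201, 16716 and 15867 CPM in other mesenchyme. The sum was higher in the selected cells of every library, least so in the second ablated one, and its part in these ratios was not tested.

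At the other end, *Sox9*, the master regulator of cartilage, stood at 7.14, 7.44, 5.03 and 8.32 CPM against 116, 81.3, 103 and 106 CPM in other mesenchyme. *Msx1* and *Msx2*, homeobox genes of the genital mesenchyme, had log2 ratios of -2.99 ± 0.220 and -2.99 ± 0.444, and *Mgp*, an inhibitor of calcification, of -2.89 ± 0.173. The posterior Hox genes, which pattern the distal limb and genital tubercle, went both ways. *Hoxa13* had a ratio of -2.47 ± 0.278 and *Hoxd13* of -1.94 ± 0.144. *Hoxc10*, the most abundant of them in the selected cells, was higher there in all 4 libraries, at 85.7, 78.3, 116 and 54.1 CPM against 32.3, 33.7, 42.2 and 38.3 CPM, and so was *Hoxc9*, with a ratio of 0.72 ± 0.302. The 11 listed genes summed to 292, 271, 295 and 253 CPM against 573, 489, 566 and 630.5 CPM.

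**Figure D2:**
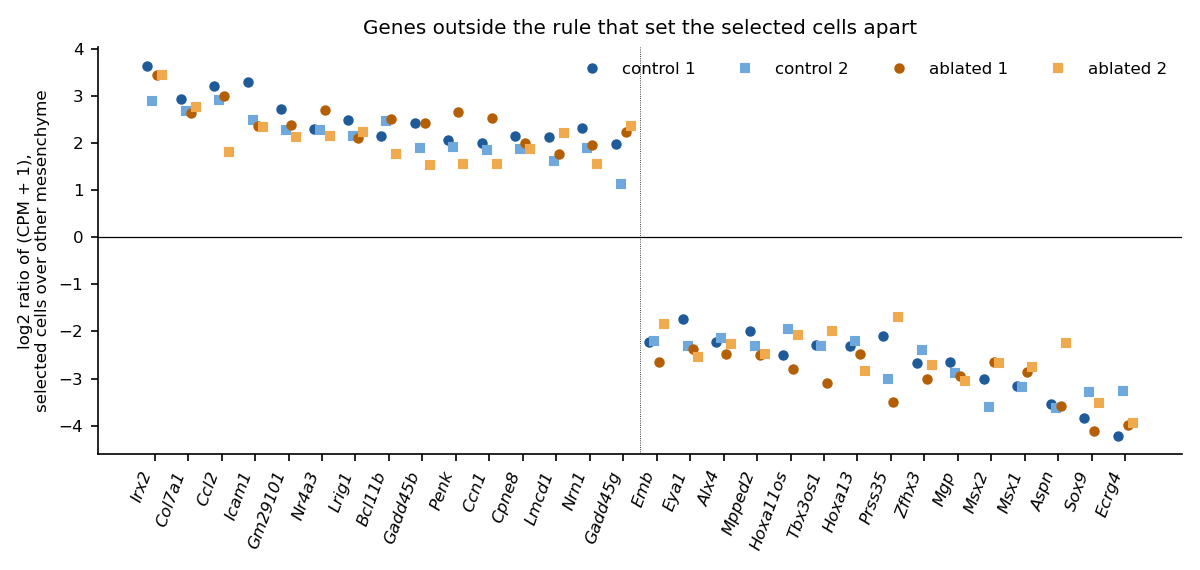
Log2 ratio of CPM (1 CPM added) in selected cells over other mesenchyme, 1 symbol per library, for the 15 genes outside the rule with the largest and the 15 with the smallest ratios among genes with at least 50 CPM and the same direction in all 4 libraries. *Irx2*, at a mean of 3.35, leads one end and *Ecrg4*, at -3.85, the other.

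More of the selected cells carried mitotic genes. At least 2 of 8 mitotic genes had a UMI in 27.1%, 33.3%, 31.6% and 23.4% of the selected cells of the 4 libraries (controls first), against 14.47%, 14.9%, 7.80% and 7.34% of other mesenchyme. Drawn down to 1000 UMIs in every cell, the shares were 15.04%, 23.5%, 21.5% and 14.1% against 8.28%, 9.83%, 4.97% and 4.52%.

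The selection could also be split by *Irx1* and *Tbx18*. Both are markers of the rule, and a cell with 4 markers, 3 of them *Twist2*, *Osr2* and *Crabp1*, can show only 1 of the others, so how seldom they were found together follows largely from the rule. *Irx1* without *Tbx18* was found in 34.1% and 36.7% of the control cells and 38.9% and 26.9% of the ablated cells, *Tbx18* without *Irx1* in 34.5%, 25.1%, 24.2% and 39.4%, and both in 15.9%, 15.8%, 20.5% and 11.8%. The second ablated library had the lowest share of *Irx1* cells and the highest share of *Tbx18* cells. The *Irx1* cells held more *Ccl2* (92.0, 341, 64.0 and 53.2 CPM against 19.3, 97.6, 24.5 and 5.34 CPM in *Tbx18* cells), and more *Runx1*, a Runt-family transcription factor (78.3, 123, 190.3 and 95.8 CPM against 18.4, 56.1, 67.9 and 18.2 CPM). They also held more *Penk* and more of the potassium channel gene *Kcnk2*. The *Tbx18* cells held more *Postn*, the matrix protein periostin (361, 426, 277 and 503 CPM against 34.2, 162, 43.6 and 77.6 CPM in *Irx1* cells), more *Gria2*, a glutamate receptor subunit (139, 128, 145 and 267 CPM against 6.85, 27.8, 20.4 and 35.0 CPM), and more of the growth factor *Igf1* (185, 293, 157 and 269 CPM against 80.2, 92.7, 38.5 and 13.7 CPM). *Akap12* belonged to the same side, with 164, 150.1, 233 and 456 CPM in *Tbx18* cells and 23.5, 35.2, 67.4 and 129 CPM in *Irx1* cells. The split was made after the values were seen and has no test.

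**Figure D3:**
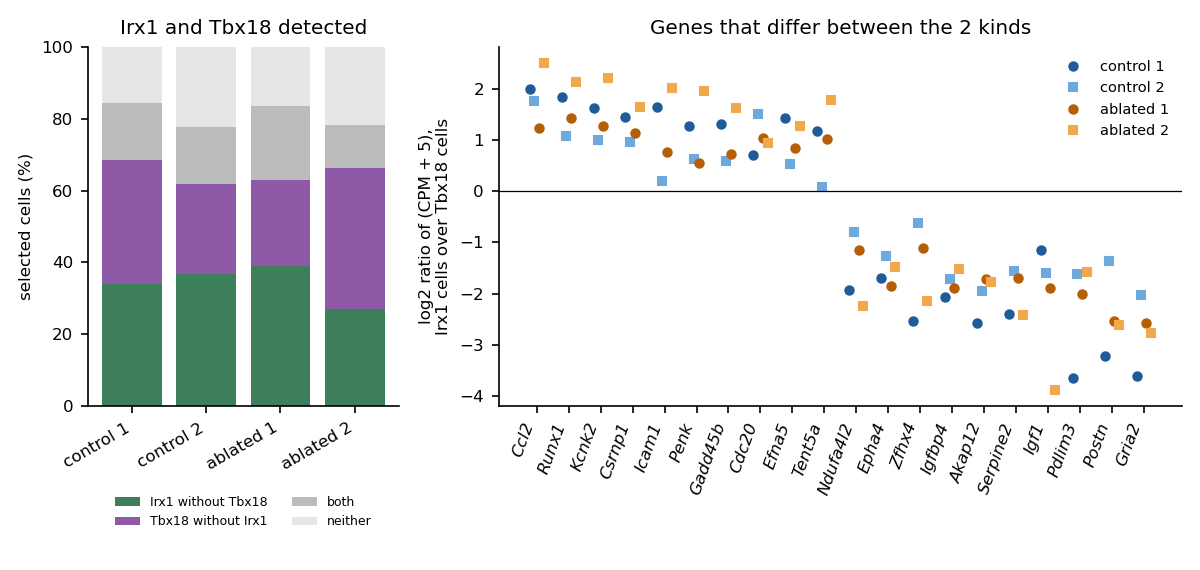
Left, percent of selected cells in each library with *Irx1*, *Tbx18*, both or neither detected; right, log2 ratio of CPM (5 CPM added) in *Irx1* cells over *Tbx18* cells, 1 symbol per library, for the 10 genes outside the rule with the largest ratio on each side among genes with at least 100 CPM and the same direction in all 4 libraries. *Ccl2* and *Runx1* lead the *Irx1* side, *Gria2* and *Postn* the *Tbx18* side.

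Between the genotypes, UMIs were summed over the selected cells of each library and tested with edgeR's quasi-likelihood test. Of 11272 genes outside the rule, 78 (0.692%) passed an adjusted p of 0.05 (Benjamini-Hochberg). Of these, 23 (0.204%) were higher and 55 (0.488%) lower in ablated penises. In all 78 the 2 genotypes did not overlap, which was also true of 32.7% of all genes tested. Of the genes named below, *Angptl4*, *Bmp4*, *Cyp26b1* and *Adamts5* each passed in 7 of 16 alternative analyses, and *Nrtn* in 8 of 16. Without the second control library 26 genes passed, and without the first ablated library 201. A fit without 1 library leaves 1 library in a genotype, so its spread comes from the other genotype alone. The alternatives include such fits. The median log2 fold change over all genes was -0.01.

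The reporter came first as a check of the labels. *tdTomato* had 0 UMIs in both control libraries and 3579 and 3140 in the ablated libraries. In the selected cells it stood at 138 and 97.4 CPM in ablated penises, at least 235-fold above the 3 UMIs that a count of 0 over both controls allows. It was found in 31.9% and 33.2% of the selected cells of ablated penises, against 21.5% and 21.5% of other mesenchyme and 2.16% and 1.92% of red blood cells removed by the hemoglobin limit. Drawn down to 1000 UMIs per cell, the shares were 9.43% and 9.05% against 6.82% and 6.77% of other mesenchyme. The study describes a low background of the reporter transcript in most cells of its developmental series, so a single UMI does not mark a cell of the lineage. *Gt(ROSA)26Sor*, the transcript of the targeted Rosa locus itself, rose from 15.1 and 17.2 CPM to 97.3 and 84.2 CPM. *Nr5a1* had no UMI in any selected cell, and the diphtheria toxin transcript was not analysed here.

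Among the falls were several glucocorticoid-induced genes. Of 24 genes on this list 22 could be tested, 6 fell and none rose. Members that are rare in ablated cells, such as *Sult1a1*, could enter the test through the control libraries alone, so no median is given. *Fkbp5*, the co-chaperone that restrains the glucocorticoid receptor (chromosome 17:28399094-28517527, minus strand, GRCm38), stood at 95.4 and 80.5 CPM in control and 16.9 and 25.5 CPM in ablated penises. Both ablated values were far below either control, with a log2 fold change of -2.08 (SE 0.24, adjusted p = 8.27e-04). *Zbtb16*, a zinc-finger repressor, fell from 18.1 and 25.5 CPM to 3.52 and 5.59 CPM (log2 fold change -2.32, adjusted p = 0.00604). *Angptl4*, which blocks lipoprotein lipase, fell from 50.7 and 38.4 CPM to 21.5 and 12.4 CPM, and *Sult1a1*, a sulfotransferase, from 7.39 and 6.30 CPM to 0.659 and 0.798 CPM. The other 16 tested members did not pass. They included the list's most abundant gene, the cell cycle inhibitor *Cdkn1c*, at 903, 835, 515 and 867 CPM.

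The metallothioneins *Mt2* and *Mt1*, small proteins that bind zinc and copper, make up the rest of this group, and *Mt2* had the largest fall of any gene with at least 20 CPM. *Mt2* stood at 39.0 and 50.7 CPM in control and 7.47 and 4.79 CPM in ablated penises. This was 6.98-fold lower (log2 fold change -2.80, SE 0.28, adjusted p = 3.19e-04). *Mt1* stood at 272 and 270.1 CPM against 105 and 29.1 CPM, 3.92-fold lower (SE 0.37 on the log2 scale, adjusted p = 0.0233), and its 2 ablated libraries were far apart. Its log2 fold change of -1.97 was -3.22 without the first and -1.36 without the second of them, and that of *Mt2* ran from -3.43 to -2.58 over the alternatives. A UMI of *Mt1* was found in 33.3% and 41.6% of the control cells and 16.6% and 8.54% of the ablated cells. In other mesenchyme the share was 12.95%, 25.3%, 3.38% and 2.40% (controls first) at median depths of 4958.5, 4150.5, 3446 and 3541 UMIs. Drawn down to 1000 UMIs per cell, *Mt1* was found in 14.0%, 17.6%, 5.58% and 3.77% of the selected cells and 3.88%, 10.1%, 1.24% and 0.623% of other mesenchyme. For *Mt2* the shares were 11.7%, 14.52%, 2.92% and 1.51% against 3.17%, 8.01%, 0.611% and 0.360% of other mesenchyme. At the full depth of the cells these shares were higher in the selected cells in every library for both genes. Drawn down to 1000 UMIs, *Mt2* was found in 2.12%, 3.23% and 0.664% of the selected cells of the first 3 libraries and in none of the 398 of the second ablated one, which allows a share of up to 0.754%, against 0.564%, 2.42%, 0.192% and 0.0277% of other mesenchyme. The red blood cells removed by the hemoglobin limit had a UMI of *Mt1* in 12.6%, 9.46%, 7.42% and 9.81%, controls first. For *Mt2* their shares were 3.75%, 2.79%, 2.34% and 3.49%. In the ablated libraries other mesenchyme at full depth was below these shares. How far the red blood cells measure the free RNA of these genes was not tested.

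*Mt1* and *Mt2* lie next to each other on chromosome 8, and because they fell together their promoters are shown, as 250 bases that end at the base before the RefSeq start (GRCm38.p6, both on the plus strand). Capitals mark the letters of the metal response element, TGCACNC or TGCGCNC on either strand, which the zinc-sensing factor MTF1 binds. The *Mt1* window is chr8:94178839-94179088 and the *Mt2* window chr8:94172368-94172617.
Mt1: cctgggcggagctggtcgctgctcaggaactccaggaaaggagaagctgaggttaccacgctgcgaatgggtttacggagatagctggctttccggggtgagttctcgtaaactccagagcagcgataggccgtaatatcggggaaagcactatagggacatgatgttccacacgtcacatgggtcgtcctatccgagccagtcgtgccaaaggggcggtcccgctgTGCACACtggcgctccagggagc
Mt2: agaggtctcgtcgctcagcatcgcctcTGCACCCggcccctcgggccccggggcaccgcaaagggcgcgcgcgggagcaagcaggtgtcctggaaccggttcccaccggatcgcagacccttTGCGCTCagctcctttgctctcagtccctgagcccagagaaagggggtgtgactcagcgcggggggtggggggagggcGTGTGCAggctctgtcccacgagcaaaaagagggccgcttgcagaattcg
The *Mt1* window held 1 match and the *Mt2* window 3, of which 1 was on the minus strand. At least 1 match was held by 21.4% of all 32851 RefSeq promoter windows of this length, so the matches are a description only.

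Steroid genes were next. *Srd5a2*, the enzyme that turns testosterone into dihydrotestosterone, stood at 16.1 and 23.2 CPM in control and 1.98 and 5.59 CPM in ablated penises, 5.74-fold lower (adjusted p = 0.0125). Its log2 fold change of -2.52 ran from -3.29 to -1.81 over the alternatives. It had a UMI in 6.14% and 8.06% of the control cells and 0.930% and 3.27% of the ablated cells, and in 0.560%, 1.33%, 0.0584% and 0.676% of the red blood cells. The glucocorticoid receptor *Nr3c1* did not pass, at 113, 141, 183 and 144 CPM. Of 14 steroid receptor and enzyme genes 8 were tested and *Srd5a2* alone passed. None of the 9 tested genes of an androgen-induced list passed, and their median log2 fold change was -0.10. Its most abundant gene, *Igf1*, stood at 128 and 187 CPM against 85.0 and 130.5 CPM.

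Secreted signals and their partners changed in single genes per list. *Ptn*, the heparin-binding growth factor pleiotrophin (chromosome 6:36714929-36810220, minus strand), fell from 2059.9 and 1891 CPM to 674 and 876 CPM, 2.55-fold (log2 fold change -1.35, SE 0.16, adjusted p = 8.27e-04). *Igfbp2*, which binds insulin-like growth factors, fell from 531 and 399 CPM to 149 and 225 CPM, and was the 1 gene to pass of 12 on the IGF list. Its log2 fold change of -1.32 was -0.10 in cells with at least 5 markers, where it did not pass. *Bmp4*, a ligand of the bone morphogenetic protein family, fell from 147 and 113 CPM to 65.0 and 67.4 CPM. It was the 1 gene to pass of 23 on the BMP and activin list, while the BMP target *Id1* stood at 812, 1021, 800.0 and 668 CPM. *Cyp26b1*, which degrades retinoic acid, fell from 92.4 and 212 CPM to 62.6 and 44.3 CPM, as the 1 gene to pass of 10 on the retinoic acid list. Its 2 controls were far apart, and its log2 fold change of -1.497 was -0.76 without the second. *Sfrp5*, a secreted Wnt inhibitor, rose from 2.35 and 0.994 CPM to 11.6 and 7.98 CPM (log2 fold change 2.56, from 1.59 to 3.28 over the alternatives), as the 1 gene to pass of 25 on the Wnt list.

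No gene of the Hedgehog list (13 tested), the FGF list (14) or the EGF list (4) passed. *Ptch1*, a receptor and target of Hedgehog, stood at 137, 209, 213 and 124 CPM, and *Nrg1*, an EGF-family ligand, at 4.37, 3.98, 11.9 and 5.59 CPM. *Egfr* stood at 4.03, 9.94, 3.08 and 5.19 CPM and *Erbb2* at 15.8, 19.2, 14.9 and 18.0 CPM, and in both the genotypes overlapped. *tdTomato* and *Srd5a2*, which the study also named, passed in the selected cells, as given above. Of 10 tested genes on a list of the reporter and the *Nr5a1* lineage, 1 rose and 2 fell. The study's genes that follow in this paragraph did not pass in the selected cells or were too rare to test. The study reported *Ccn1*, *Timp1*, *Itga4*, *Dner* and *Cnn1* for periurethral cells, not for the cells selected here. In other mesenchyme *Scube2*, *Timp1* and *Itga4* passed, with log2 fold changes of -1.34, -0.86 and 1.18, while *Grem1* and *Ccn1* did not. *Grem1*, a BMP antagonist, stood at 70.2, 75.9, 78.0 and 37.5 CPM, and *Scube2*, which helps release Hedgehog ligands, at 5.37, 9.94, 13.4 and 7.18 CPM. *Ccn1* stood at 619, 853, 636 and 361 CPM (adjusted p = 0.611), *Timp1* at 14.8, 11.3, 12.5 and 9.18 CPM and *Itga4* at 11.8, 23.5, 23.3 and 14.8 CPM. *Dner* had 10, 6, 5 and 5 UMIs and *Cnn1* 14, 7, 4 and 0. *Akap12*, at 87.7, 74.2, 117 and 299.6 CPM on edgeR's scale, missed the threshold (adjusted p = 0.0949), and its highest value was in the second ablated library. The genotypes did not overlap, and it passed in 4 of 16 alternatives. Its log2 fold change of 1.35 ran from 0.53 to 2.72 over them.

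Neuronal-type genes were among the rises. Of 15 genes on that list 10 were tested, 2 rose and none fell. Members that are rare in control cells could enter the test through the ablated libraries alone, so no median is given. *Syt1*, the calcium sensor of synaptic vesicles, rose from 5.37 and 6.96 CPM to 23.9 and 25.9 CPM, and *Cntn4*, an axonal adhesion protein, from 10.7 and 6.30 CPM to 23.5 and 25.1 CPM. *Dcc*, the netrin receptor of growing axons, rose from 1.34 and 1.66 CPM to 11.2 and 29.9 CPM and was the 1 gene to pass of 27 on the axon guidance list. It had a UMI in 0.636% and 0.896% of the control cells and 5.58% and 12.8% of the ablated cells, and in 0.129%, 0.174%, 0.759% and 0.451% of the red blood cells. The neurofilament genes *Nefm* and *Nefl*, chosen after their values were seen, rose from 1.68 and 1.99 CPM to 7.69 and 25.9 CPM and from 1.68 and 0.994 CPM to 5.93 and 29.9 CPM, highest in the second ablated library. Over the alternatives their log2 fold changes of 3.09 and 3.61 ran from 2.02 to 4.01 and from 2.12 to 4.46, and that of *Dcc*, 3.68, from 2.87 to 4.27. Of 7 markers of glia and neurons none of the 2 tested passed. They summed to 22.8, 21.2, 16.9 and 22.7 CPM, with *Ngfr* the most abundant and *Cdh19* at 0 UMIs.

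Of genes outside the lists, *Edn3*, an endothelin ligand, stood at 73.2 and 76.2 CPM in control and 32.3 and 29.9 CPM in ablated penises, and its receptor *Ednrb* at 15.1 and 14.3 CPM against 3.74 and 3.99 CPM. *Nrtn*, the neurotrophic factor neurturin, stood at 151 and 153 CPM against 83.9 and 63.8 CPM. All 3 passed (edgeR adjusted p = 0.0104, 0.0210 and 0.0236) and were chosen after their values were seen. *Ramp3*, a partner of calcitonin-family receptors, fell from 30.6 and 34.5 CPM to 6.37 and 9.18 CPM, and *Piezo2*, a mechanically gated channel, from 27.2 and 33.5 CPM to 9.23 and 14.4 CPM. The log2 fold change of *Ramp3*, -2.11, ran from -3.39 to -1.75 over the alternatives.

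Of the 19 collagens of the list 1 passed, *Col6a6*, a collagen VI chain, which fell from 14.8 and 27.8 CPM to 2.42 and 4.79 CPM. The next 4 matrix genes lie outside the lists and were picked from the called genes after their values were seen. They give no result on matrix genes as a group. *Col6a4* fell from 7.39 and 8.62 CPM to 0 UMIs in both ablated libraries, at least 18.8-fold against a floor of 3 UMIs over the group. *Col4a5*, a basement membrane collagen, fell from 29.2 and 41.1 CPM to 14.9 and 16.8 CPM, the laminin chain gene *Lamc3* from 21.8 and 23.2 CPM to 6.15 and 9.97 CPM, and *Abi3bp* from 125 and 173 CPM to 68.8 and 60.6 CPM. All 4 passed (edgeR adjusted p = 0.00454, 0.0498, 0.0287 and 0.0168). *Col4a5* passed in 4 of 16 alternatives, and its log2 fold change of -1.16 ran from -1.39 to -0.38 over them. *Lamc3* passed in 7 of 15, and its log2 fold change of -1.54 ran from -2.29 to -1.18, while that of *Col6a6*, -2.66, ran from -3.95 to -2.11 (11 of 14 passed). *Col3a1*, the most abundant of the listed collagens, stood at 7138, 10225, 6607 and 4111 CPM. *Npnt*, the integrin ligand nephronectin, fell from 46.7 and 49.4 CPM to 24.4 and 19.9 CPM and was the 1 gene to pass of 24 on a list of other matrix genes. It passed in 6 of 16 alternatives, and its log2 fold change of -1.10 was -0.22 with the cells drawn down to 1000 UMIs. *Adamts5*, an aggrecan-cleaving protease, fell from 25.2 and 67.3 CPM to 15.6 and 9.97 CPM, as the 1 gene to pass of 17 listed proteases and inhibitors. Its log2 fold change of -1.81 was -0.92 without the second control and -0.81 with no limit on the subdermal genes. *Lum* stood at 997, 1044, 1489 and 938 CPM.

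Further genes changed outside these lists. *Socs2*, which dampens growth hormone signals, fell from 20.5 and 46.1 CPM to 9.67 and 10.8 CPM, and *Gm14964* from 27.9 and 37.8 CPM to 12.7 and 8.78 CPM. The log2 fold change of *Socs2* was -1.0 without the second control in place of -1.71. *Ifitm1*, an interferon-induced membrane protein chosen after its values were seen, fell from 671 and 999 CPM to 405 and 315 CPM. *Ezr*, which ties the actin cortex to the membrane, rose from 18.1 and 19.9 CPM to 45.5 and 70.6 CPM. *Kif26b*, a kinesin of kidney and limb mesenchyme, rose from 23.2 and 27.2 CPM to 59.3 and 85.8 CPM. *Gucy1a1*, a subunit of the nitric oxide receptor guanylate cyclase, rose from 21.2 and 15.9 CPM to 42.2 and 47.9 CPM. *Bst2*, the antiviral membrane protein tetherin, rose from 5.04 and 7.95 CPM to 51.6 and 23.9 CPM, with up to 26 UMIs in 1 cell. Its log2 fold change of 2.57 was 1.87 without the first ablated library, and that of *Gucy1a1*, 1.27, was 0.52 with at least 5 markers.

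**Figure D4:**
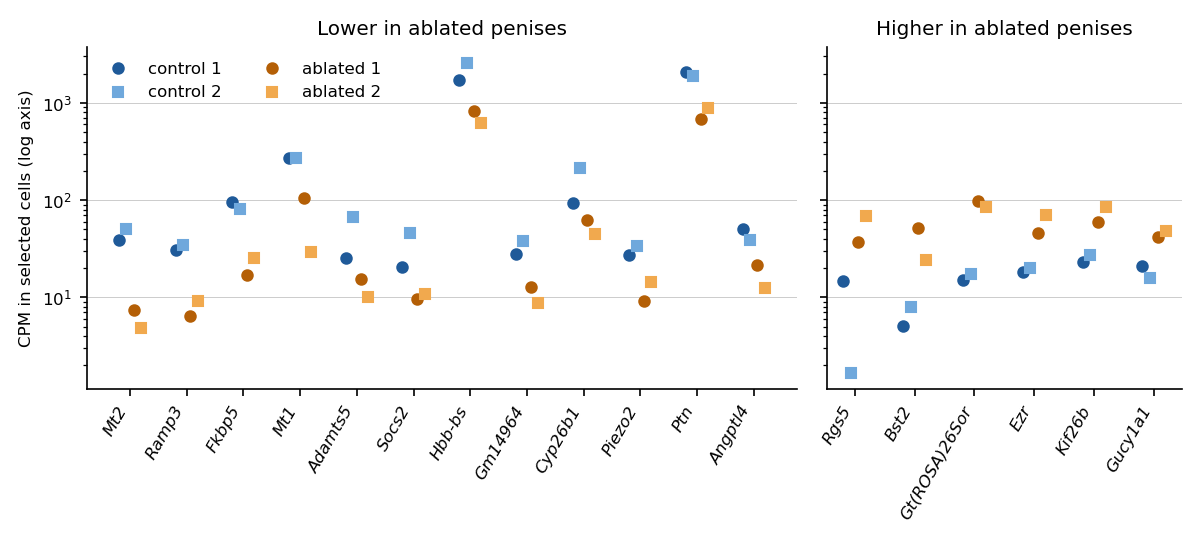
CPM in the selected cells of each library, on a log axis, for the 12 genes that fell most and the 6 mouse genes that rose most, out of those called at an average of 20 CPM or more. Genes were picked for no overlap between the genotypes. That both ablated libraries lie below both controls, or above them, therefore follows from the choice.

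Some changes were in genes known from other cell types. The 4 tested hemoglobin genes were lower, 3 of them past the threshold. *Hbb-bs* fell from 1729.7 and 2593 CPM to 822 and 622 CPM, *Hba-a1* from 402 and 392 CPM to 209 and 116 CPM, and *Hba-a2* from 282 and 317 CPM to 160.0 and 95.8 CPM. In cells with at least 5 markers their log2 fold changes of -1.58, -1.28 and -1.22 were -0.30, -0.50 and -0.53, and with the rule applied to cells drawn down to 2000 UMIs they were -3.22, -2.73 and -2.80. The list of 8 summed to 2637, 3679, 1328 and 876 CPM, with *Hbb-bs* the most abundant and 2 genes at 0 UMIs, while 2948, 2141, 2028 and 1032 cells of the libraries were over the hemoglobin limit. Fibroblasts do not express globins, and the part of free RNA was not tested.

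*Rgs5*, a defining gene of pericytes, rose from 14.8 and 1.66 CPM to 36.7 and 68.2 CPM, but its UMIs sat in 4, 4, 15 and 16 cells, with 25 of 44 UMIs of the first control in 1 cell, and its log2 fold change of 2.65 was 4.92 without the first control and 1.81 without the second. The other pericyte genes *Kcnj8* and *Abcc9* had 8, 7, 28 and 26 and 15, 5, 30 and 37 UMIs. *Myocd*, the co-activator of smooth muscle genes, fell from 20.8 and 27.5 CPM to 9.01 and 7.18 CPM. It passed in 9 of 14 alternatives that could test it, and its log2 fold change of -1.55 was -4.12 drawn down to 1000 UMIs and -1.23 with at most 1 subdermal gene. The study names *Myocd* and *Col6a6* among the genes of its *Nr5a1*-lineage cells. In other mesenchyme their log2 fold changes were -1.51 and -2.21, and only that of *Col6a6* passed. The part of lineage cells in these falls was not tested. *Acta2* stood at 105, 79.5, 59.98 and 18.0 CPM. The 10 pericyte and smooth muscle genes summed to 319, 307, 217 and 229 CPM, with *Tagln* the most abundant and none at 0, and 9 were tested. *Cxcl13*, a B-cell chemokine and the 1 gene to pass of 7 on the chemokine list, rose from 0.336 and 0.331 CPM to 5.05 and 10.4 CPM in 1, 1, 9 and 8 cells.

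Immune genes summed to 11.8, 80.9, 14.502 and 9.58 CPM, with *Lyz2* the most abundant, so the second control held more of them than the other libraries. Epithelial genes summed to 21.8, 23.2, 24.8 and 18.4 CPM and endothelial genes to 22.5, 23.2, 23.3 and 18.8 CPM, and none of the 3 and 1 that could be tested passed. The part of these cells in the changes was not tested. In the 412, 489, 648 and 340 selected cells without a UMI of any of 16 other-lineage genes, 59 genes passed and 54 of them were among the 78.

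No gene of the cell cycle or dissociation lists passed. The 24 cell cycle genes had a median log2 fold change of 0.030, and their sum was 2869, 3862, 3933 and 2644 CPM. The 23 dissociation genes summed to 15709, 24835, 23768 and 15942 CPM, and in both lists the spread within a genotype exceeded the difference between them. None of 13 hypoxia and glycolysis genes, 11 posterior Hox genes, 22 other genes of prepuce and dermis, 9 targets of YAP and the CCN family, 4 chondrogenic genes, 4 periurethral genes and 8 genes of the distal glans passed.

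Several falls could be followed in both kinds of selected cells. *Fkbp5* stood at 82.2 and 67.7 CPM against 19.3 and 24.3 CPM in *Irx1* cells and at 104 and 84.2 CPM against 16.0 and 22.4 CPM in *Tbx18* cells. *Bmp4* stood at 87.1 and 82.5 CPM against 29.4 and 24.3 CPM in *Irx1* cells, and at 187 and 155 CPM against 75.4 and 79.0 CPM in *Tbx18* cells. Both genes were already without overlap over all selected cells, as were 32.7% of all genes tested. The share of genes without overlap within each kind was not counted, so these values are a description. For *Cyp26b1* the *Irx1* cells stood at 109.6 and 258 CPM against 53.2 and 30.4 CPM, while in *Tbx18* cells the genotypes overlapped, at 71.7 and 137 CPM against 75.4 and 58.7 CPM. These genes were chosen for this view after their values were seen.

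Finally, the response of the selected cells was set against that of the 24947 cells of other mesenchyme, in which 3.53% of 15199 genes passed. Both populations come from the same 4 libraries and share their free RNA. The log2 fold changes in selected cells and in other mesenchyme were -2.08 and -2.70 for *Fkbp5*, -2.80 and -3.85 for *Mt2*, -1.32 and -1.49 for *Igfbp2*, -2.52 and -1.86 for *Srd5a2*, 2.00 and 1.93 for *Syt1* and 3.68 and 1.63 for *Dcc*, genes chosen after their values were seen, and all 6 passed in both populations. *Bmp4*, at -0.97 and -0.13, did not pass in other mesenchyme (edgeR adjusted p = 0.813). Its difference between the populations was not among those called by the test that follows. A test of the difference in response, in 1 fit over both populations with the library as a block, called 15 of 14429 genes (0.104%), 7 with a higher and 8 with a lower log2 fold change in the selected cells. None of the 15 passed with an upper limit of 7500 UMIs per cell. Left out in turn, the first and second control and the first and second ablated library gave 13, 34, 280 and 526 calls. Of the 13 without the first control, 5 were among the 15, so the others of the 15 lost their call.

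*Npnt* had the largest negative difference, of -1.76 (log2, SE 0.19, edgeR adjusted p = 0.00331). It stood at 45.1 and 48.2 CPM against 24.3 and 20.8 CPM in control against ablated selected cells, and at 97.8 and 83.2 CPM against 144 and 154 CPM in other mesenchyme, so the direction was opposite. The difference passed in 6 of 8 alternatives and ran from -1.99 to -1.10, and it did not pass in cells drawn down to 1000 UMIs (edgeR adjusted p = 0.286). *Igfbp3*, which binds insulin-like growth factors, stood at 340.0 and 703 CPM against 359 and 469.8 CPM in selected cells and at 437 and 469 CPM against 924 and 1058 CPM in other mesenchyme (difference -1.40, SE 0.21, edgeR adjusted p = 0.0213). The other negative differences named here were -1.47 for *Tcim*, -1.28 for the selenium carrier *Selenop* and -1.18 for the matrix protein gene *Egfl6*. Among the positive differences with at least 20 CPM, *Rrm2*, the ribonucleotide reductase subunit needed for DNA synthesis, stood at 49.0 and 58.2 CPM against 67.0 and 49.9 CPM in selected cells, and at 40.1 and 37.8 CPM against 20.01 and 19.3 CPM in other mesenchyme (difference 1.11, SE 0.19, edgeR adjusted p = 0.0451). *Ppa1*, a pyrophosphatase, the fibrillin gene *Fbn2* and the cytokine gene *Mif* had differences of 0.94, 0.74 and 0.71. In each of *Rrm2*, *Ppa1* and *Mif* the other mesenchyme was lower in both ablated libraries while the selected cells overlapped between genotypes.

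**Figure D5:**
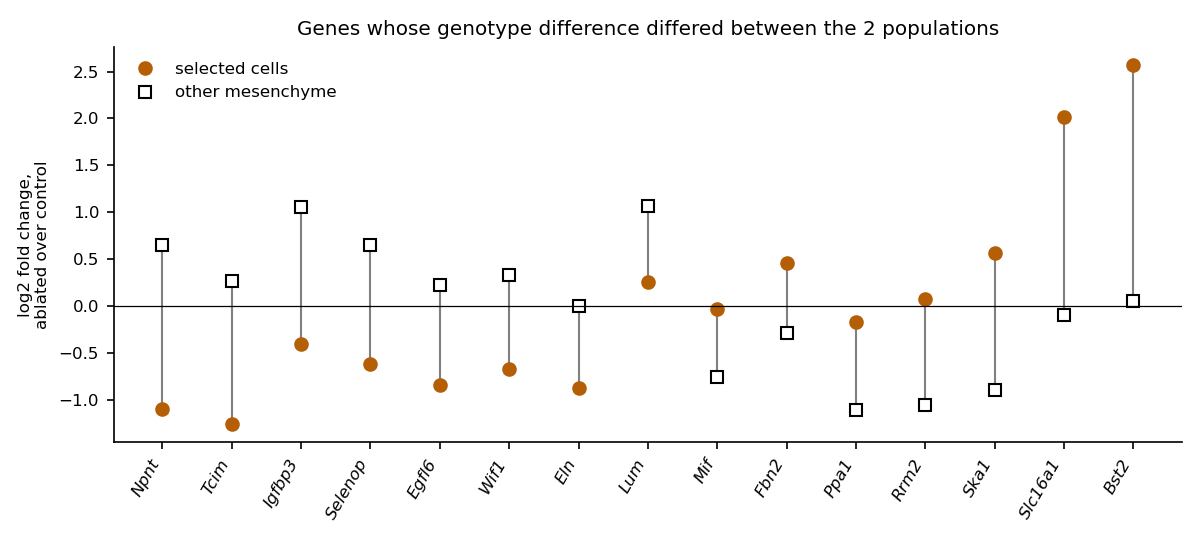
Log2 fold change, ablated over control, in the selected cells and in other mesenchyme for the 15 genes whose response differed between the 2 populations. *Npnt* was at -1.10 in the selected cells and at 0.65 in other mesenchyme, and *Bst2* at 2.57 and 0.058.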

How the data were processed

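The authors aligned 10x reads to mm10 with reporter sequences added (the file header names Cell Ranger 4.0.0, the methods an earlier version) and deposited UMI counts per gene and barcode, not normalized, for 4 samples. The deposited counts were filtered per cell and selected by the rule given with the results. Doublets were not removed. Members, gene lists and tests were chosen with earlier results of these data known. UMIs were summed per library, filtered with filterByExpr, scaled by TMM and tested with edgeR 4.0.16 in R 4.3.3 (quasi-likelihood, genotype only, Benjamini-Hochberg). CPM values are on that scale for the comparison of genotypes and plain where cells or populations are compared. The difference in response was tested with the library as a block. DESeq2 1.42.0 was an alternative. Python 3.11.15 with scipy 1.17.1 gave exact Clopper-Pearson intervals.

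Genes named are those of the rule, list members that passed, with up to 4 of the most abundant per list, up to 12 that rose and fell most among called genes with at least 20 CPM and no overlap, up to 5 per direction of the difference in response, up to 15 that set the cells apart, and genes named by the study; others are said to be chosen after their values were seen. The genes of the rule were left out of the calls. Between 31 and 48 barcodes were shared by any 2 libraries, and 1 among the selected cells. Replicates of a genotype differed by more than counting noise (chi-square per degree of freedom 5.91 and 5.32). The scripts were tested on simulated data: with a log2 change of 1 given to 200 genes, 33% were found among 11081 genes with 2 false calls, and 6% among 14429 genes with 0 false calls for the difference in response. Intervals and floors cover counting error only. A result for 1 gene named by the study is not reported here.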

Additional observations from a re-analysis of the deposited data

Results flagged for a closer look

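The response to ablation differed between the selected cells and other mesenchyme in 15 genes by the test of the difference itself (edgeR, adjusted p under 0.05), which is what singled them out. On the log2 scale the difference, selected cells minus other mesenchyme, was -1.76 for *Npnt*, -1.47 for *Tcim*, -1.40 for *Igfbp3*, -1.28 for *Selenop*, -1.18 for *Egfl6*, -1.04 for the Wnt inhibitor *Wif1*, -0.90 for elastin (*Eln*) and -0.85 for *Lum*. It was 0.71 for *Mif*, 0.74 for *Fbn2*, 0.94 for *Ppa1*, 1.11 for *Rrm2*, 1.41 for the spindle gene *Ska1*, 2.08 for the lactate carrier *Slc16a1* and 2.43 for *Bst2*. *Lum* stood at 964, 1019, 1483 and 979 CPM in the selected cells and at 178, 216, 504 and 361 CPM in other mesenchyme. *Slc16a1* stood at 7.14, 7.12, 33.9 and 25.8 CPM in the selected cells and at 6.83, 8.76, 8.25 and 7.09 CPM in other mesenchyme. Its difference did not pass in cells drawn down to 1000 UMIs (edgeR adjusted p = 0.551). Nor did it pass with at least 5 markers (edgeR adjusted p = 0.0993). *Npnt*, *Slc16a1* and *Bst2* also passed the test between genotypes within the selected cells. *Igfbp3* passed under 7 of 8 alternatives, *Selenop* under 7 of 8, and *Rrm2* and *Ska1* under 4 of 8 and 4 of 8.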

How the results depend on the processing

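All 78 genes kept their direction wherever an alternative could test them, 22 passed in at least 12 of 16 alternatives, and *tdTomato* and *Gt(ROSA)26Sor* in all 16. The number of genes that passed between genotypes was 49 with DESeq2, 159 with the likelihood ratio test, 247 without a filter on low counts, 36 with an upper limit of 7500 UMIs, 8 with at least 5 markers, 40 with no limit on the subdermal genes, 7 in selected cells drawn down to 1000 UMIs and 14 with the rule on cells drawn down to 2000 UMIs, and from 26 to 201 without 1 library. For the difference in response it was 290 without a filter, 0 with the 7500 limit (912 at an unadjusted p under 0.05 by edgeR), 56 with at least 5 markers and 39 after drawing down to 1000 UMIs, and from 13 to 526 without 1 library. The log2 ratio of the share of selected cells, 0.054, ran from -0.594 to 0.4996 without 1 library and moved by less than the spread under the others. Smaller or shallower selections left fewer genes to test, 6549 after drawing down to 1000 UMIs. Of the 78 genes, 40 could still be tested there and 7 passed. With at least 5 markers 56 of them could be tested and 8 passed. With the 7500 limit 74 could be tested and 32 passed. Most calls were thus lost in genes that were still tested, and the causes were not tested.

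With the replicate number as a block 72 genes passed, 64 of them among the 78, but the numbers only name the samples: deviations of same-numbered samples correlated at -0.26 over 2 pairs. With crossed numbers as the block, an alternative added after the data were seen, 369 passed.

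Directions turned only for genes that did not pass. *Grem1* was at 0.095 without the second ablated library (-0.967 to 0.0947 without 1 library), *Scube2* at -0.10 without the first (-0.100 to 0.996), *Timp1* at 0.32 with the 7500 limit, and *Erbb2* at 0.053 without the second control, 0.030 without the first ablated library (-0.245 to 0.0528) and 0.10 with at least 5 markers. *Itga4* ran from -0.270 to 0.741 without 1 library, and was at -0.26 without the first ablated library, -0.035 with the 7500 limit, -0.18 with at least 5 markers, -0.072 with at most 1 subdermal gene, -0.15 drawn down to 1000 UMIs and -0.48 with the rule on 2000 UMIs.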
